A study of Mus musculus with 6 samples.

Results

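The genes of the interferon response and of class I antigen presentation were followed in the hearts of mice that lack the long non-coding RNA *Trdn-as*. The set held 43 genes chosen by symbol, with earlier results of these data known. All 43 were found among the 21776 genes of the table, each as a single protein-coding gene. *Trdn-as* runs antisense to *Trdn*, which encodes triadin of the calcium release complex in the sarcoplasmic reticulum. Hearts of 3 mice homozygous for the *Trdn-as* KO allele were compared with 3 WT hearts. The KO allele carries a polyadenylation site, placed with Cas9 in the first exon of *Trdn-as* in embryonic stem cells, in the whole animal and not in cardiomyocytes alone. Chimeric founders were crossed back to C57BL/6. The age of the mice in the sequenced hearts is not given in the sources used here, and the labels name no treatment.

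Type I interferons, which nearly every cell can secrete on sensing foreign nucleic acid, and interferon gamma, which comes mainly from T and NK cells, bind separate receptors that signal through JAK kinases and STAT proteins. A complex that includes STAT2 and IRF9 binds the interferon-stimulated response element (ISRE) in promoters, and interferon gamma acts through the gamma-activated site (GAS). The induced genes encode sensors, transcription factors that amplify the signal, antiviral effectors, GTPases that attack the vacuoles of intracellular pathogens, and the machinery that loads peptides on MHC class I. Many of these genes are also transcribed at a low basal level in tissue without infection, in cardiomyocytes as well as in endothelial cells, fibroblasts and resident macrophages.

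Values are read counts per gene that the authors divided by a size factor for each library and rounded. The libraries were small, with an estimated 2.59 to 3.62 M counted reads, fewest in WT replicate 1. *Xist* was listed at 1 to 4 and *Ddx3y* at 673 to 735, so all 6 hearts carried a Y chromosome. *Trdn-as*, listed as AC157017.2, stood at 1, 0 and 1 in KO hearts and at 690, 773 and 688 in WT hearts, which matched the labels. Cardiomyocyte markers were abundant in every heart, *Ryr2* at 9276 to 11387. The sources name 3 KO hearts and 3 WT hearts as separate samples and say nothing more about their origin. Each p-value sets a difference against the spread between these samples, drawn toward the trend of all genes. The prior had 15.4 degrees of freedom and the gene itself 4. In whole tissue, fewer cells of a type and less RNA per cell cannot be told apart.

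All 43 genes were above 0 in every heart. Per exonic kilobase, the scale on which levels of different genes can be set side by side, the mean level over the 6 hearts ran from 3.97 for *Zbp1* to 350 for *B2m*. *B2m*, the light chain of MHC class I, was followed by the heavy chain gene *H2-D1* at 131. *Iigp1*, a GTPase, stood at 86.0, *Tapbp* at 81.3 and the heavy chain gene *H2-K1* at 76.0. The lowest levels per kilobase after *Zbp1* were those of the immunoproteasome gene *Psmb9* at 4.01, the GTPase gene *Ifi47* at 5.46 and the ubiquitin-like modifier gene *Isg15* at 7.94. Antigen presentation thus held both the highest gene and the second lowest, whereas the 5 transcription factor genes lay close together, from 12.6 for *Nlrc5* to 32.0 for *Irf1*.

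**Figure D1:**
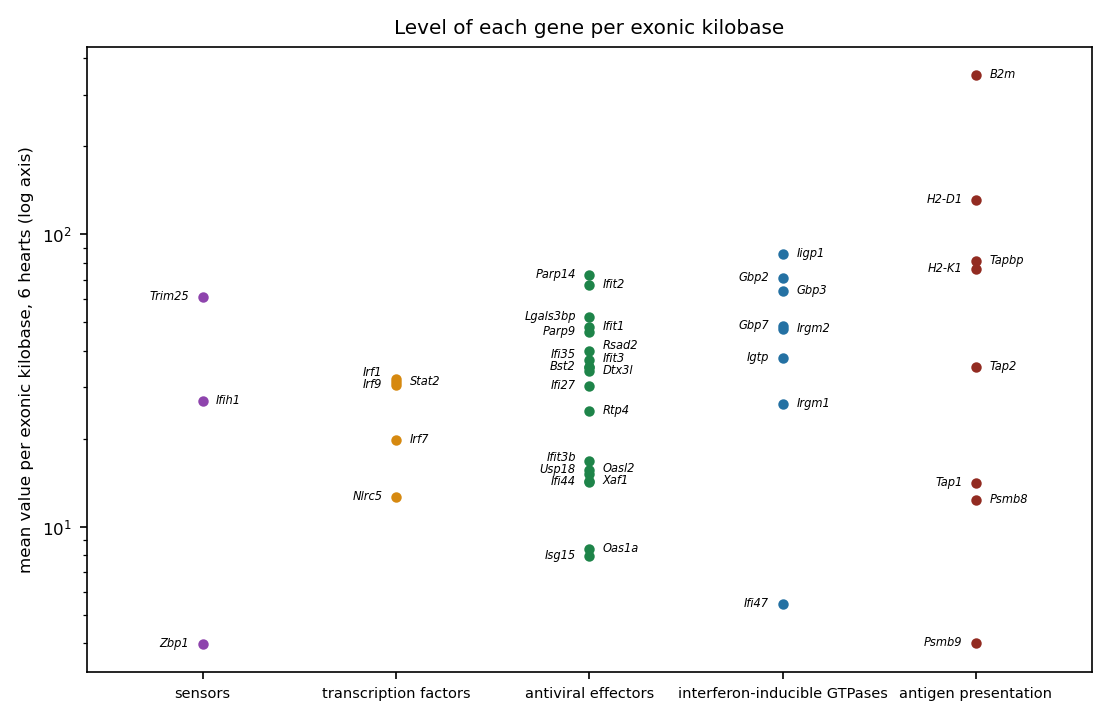
Mean value per exonic kilobase over the 6 hearts for each of the 43 genes, on a log axis, in columns by role; each point is 1 gene. *B2m* stands highest at 350 and *Zbp1* lowest at 3.97.

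Reads without a unique location, and those over exons of several genes, were discarded upstream, which bears on genes with close copies. Of the 43 genes, 18 had no stretch of 75 bases, the read length, in common with annotated transcripts of another gene, 13 shared up to 5% of their stretches and 12 shared more. The share passed 20% in 3 genes. *Oas1a* shared 47.6% of its stretches with *Oas1g*, and *Ifit3* and *Ifit3b* shared 687 stretches with each other, which is 41.1% of *Ifit3* and 35.7% of *Ifit3b*. Their values count only the reads that fall outside the shared parts and are uncertain as levels. *Irgm2* and *Igtp* overlap on the plus strand in the table and shared 163 stretches, 4.78% of *Irgm2* being shared with any other gene and 7.80% of *Igtp*.

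To show the sequences through which these genes are known to be induced, the RefSeq promoters of GRCm38.p6, from 250 bases before the annotated start to 50 after it, were searched on both strands. A promoter was listed for 34 of the 43 genes. The letters searched were GAAANNGAAA for the ISRE and TTCNNNGAA for the GAS, with no mismatch. The ISRE letters were present in 16 of the 34 genes (47.1%), against 3.99% of the 27025 genes in the promoter table and 3.44% of its 32851 promoters. The GAS letters were present in 9 of the 34 (26.5%), against 9.55% of all genes and 8.30% of all promoters, and 5 genes held both. A match is a description of the sequence and not a binding site. Among the roles, the ISRE letters were found in 6 of 7 GTPase genes, 7 of 14 antiviral effector genes, 1 of 2 sensor genes, 1 of 4 transcription factor genes and 1 of 7 antigen presentation genes, which was *B2m*.

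The windows below, read from RefSeq (GRCm38.p6) on the strand of the gene, show the ISRE matches of 3 genes of the *Ifit* cluster on chromosome 19, those of a pair of neighbouring GTPase genes of chromosome 11, and those of 3 further genes with other arrangements. *Ifit2*, the fourth gene of the cluster, held a GAS match only and is not shown. Capitals mark ISRE and GAS letters. *Ifit3* and *Ifit3b* carry the same 74 bases with 2 ISRE matches in each. *Ifit1*, between chr19:34640765-34640823 on the plus strand, has 2 matches closer together.
Ifit1: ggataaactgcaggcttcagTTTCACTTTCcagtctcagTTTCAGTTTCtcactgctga
Ifit3: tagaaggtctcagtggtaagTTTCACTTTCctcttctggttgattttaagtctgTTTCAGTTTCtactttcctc
Ifit3b: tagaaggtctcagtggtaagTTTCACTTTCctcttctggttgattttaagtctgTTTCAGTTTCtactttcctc
Igtp: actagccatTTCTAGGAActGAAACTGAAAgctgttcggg
Irgm2: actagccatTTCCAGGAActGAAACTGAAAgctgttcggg
Isg15: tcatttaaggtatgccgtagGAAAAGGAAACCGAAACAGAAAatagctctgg
Bst2: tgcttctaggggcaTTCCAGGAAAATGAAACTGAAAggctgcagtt
B2m: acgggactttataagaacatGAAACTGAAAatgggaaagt

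The *Ifit3* window lies at chr19:34583353-34583426 and that of *Ifit3b* at chr19:34607749-34607822, both on the plus strand. Over the whole promoters, *Ifit3* and *Ifit3b* were the same at 75.0% of 268 aligned bases. The windows of *Igtp* (chr11:58199502-58199541, plus strand) and *Irgm2* (chr11:58214893-58214932, plus strand) hold a GAS followed by an ISRE, and over their 40 bases they differ at 1 position, T13C from *Igtp* to *Irgm2*, counted from 1 at the 5′ end of the window and lying within the GAS. *Isg15* (chr4:156200865-156200916, minus strand) has 3 overlapping ISRE matches. In *Bst2* (chr8:71537577-71537622, minus strand) the GAS overlaps the first of 2 overlapping ISRE matches, and *B2m* (chr2:122147528-122147567, plus strand) has a single ISRE. In *Ifih1* the only match (chr2:62646214-62646223) lies after the RefSeq start site, with its first base at position 33. In the coordinates used for counting, the gene ends at 62646211, so there the match lies just before the start.

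**Figure D2:**
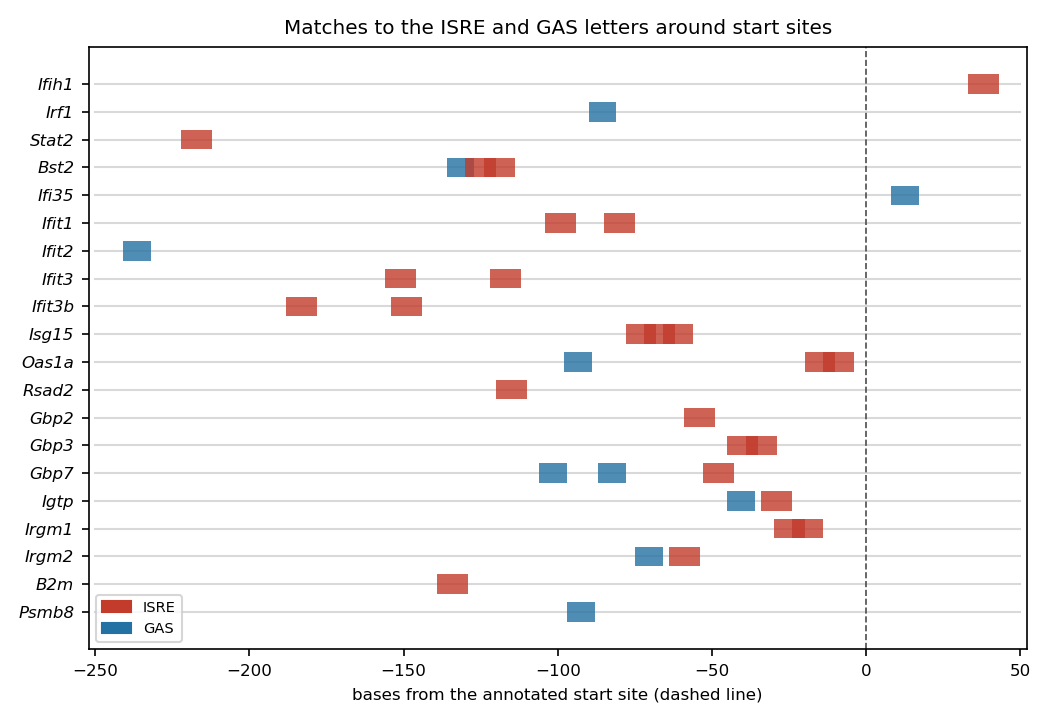
Position of each match to the ISRE and GAS letters relative to the annotated start site, in bases, for the 20 genes of the set with any match; each bar is 1 match and the grey line is the searched window. Most matches lie upstream of the RefSeq start, and those of *Ifih1* and *Ifi35* lie after it.

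KO and WT hearts were then compared to see whether loss of *Trdn-as* went along with a change in these genes. A mean of 10 or more, the limit for testing, was reached by 42 of the 43 genes and missed by *Isg15*. By limma, two-sided and with Benjamini-Hochberg adjustment over 13753 genes, none of the 42 passed an adjusted p of 0.05, where 0.0291% of all genes did, and the lowest adjusted p among them was 0.689. With limma-voom none passed either. Without adjustment, 4 genes had a p under 0.05 by limma and 6 by limma-voom, where 6.04% of all genes did. The 4 were *Ifih1*, *Zbp1*, *Irgm2* and *Ifit2*, or 9.52% of the 42, against 5.74% of all genes by limma. All 4 were higher in KO, where 2.94% of all genes were higher and 2.80% lower at this limit.

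The fitted log2 fold change was above 0 in 30 of the 42 genes and below 0 in 12. This is 71.4%, against 50.6% of all genes tested. The median was 0.09 over the 42 genes and 0.00 over all genes, and the values ran from -0.08 for *Ifi47* to 1.10 for *Zbp1*. A log2 fold change above 0.2 was fitted for 12 of the 42 genes, against 1646 of all 13753 genes tested (12.0%). None of the 42 was below -0.2, where 1189 of the 13753 were. The 3 KO values lay above the 3 WT values in 7 genes, or 16.7%, against 4.64% of all genes. In no gene of the set did they lie below, against 4.44% of all genes. The genes share hearts, so these counts are not independent of each other. The set was also chosen with earlier results of these data known, so the shares beside those of all genes are descriptions only. Leaving out WT replicate 1 brought the split to 25 higher and 17 lower with a median of 0.03, and leaving out KO replicate 2 brought the median to 0.07. Leaving out WT replicate 3 moved it the other way, to 0.16 with 32 higher and 10 lower. Without KO replicate 1 or without KO replicate 3 the split was 34 and 8, with medians of 0.11 and 0.10. With KO replicate 2 and WT replicate 1 both left out, a pair chosen after the values were seen, the split was 21 and 21, the median was 0.00 and no gene had an unadjusted p under 0.05 by limma, where 3.65% of all genes did. The set was most often highest and lowest in these hearts, so leaving out both favours smaller differences by its choice.

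**Figure D3:**
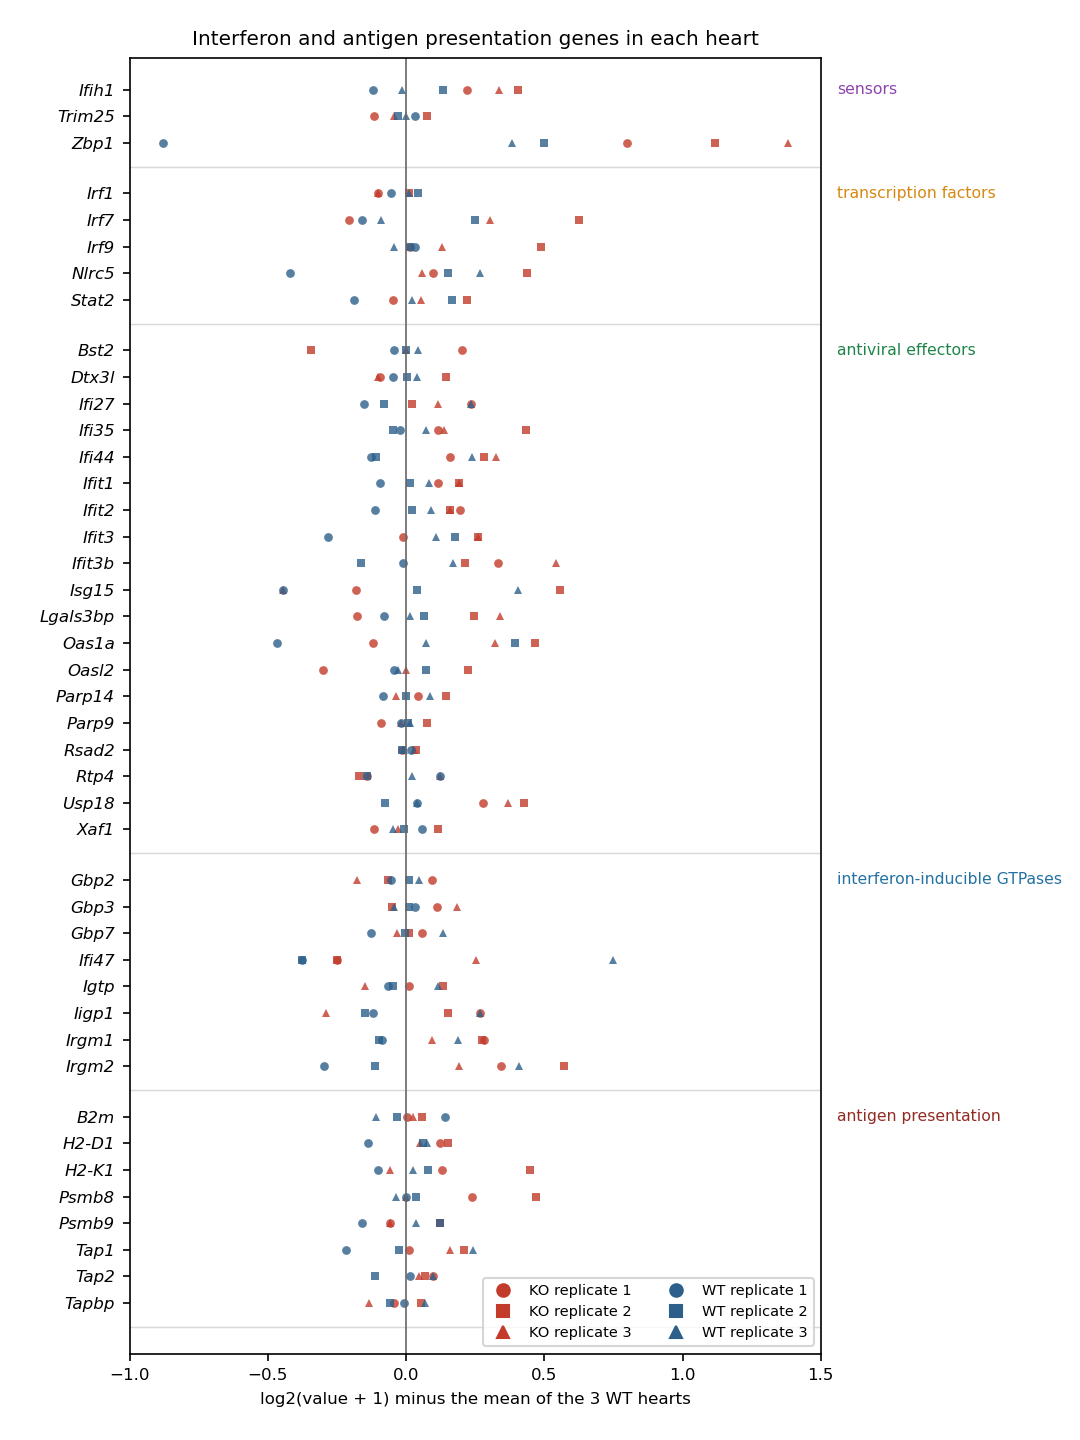
Each of the 43 genes in each of the 6 hearts, as log2(value + 1) minus the mean of the 3 WT hearts; red marks are KO, blue marks are WT, and the shape gives the replicate. The 3 KO marks lie to the right of the 3 WT marks in *Ifih1*, *Zbp1*, *Ifi35*, *Ifit1*, *Ifit2*, *Ifit3b* and *Usp18*.

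Among the 3 sensor genes, *Ifih1* and *Zbp1* had the lowest unadjusted p of the set. *Ifih1* (chr2:62595798-62646211, minus strand) encodes MDA5, the cytosolic sensor of long double-stranded RNA. Its values were 227, 258 and 246 in KO against 179, 214 and 193 in WT hearts. Every KO heart was above every WT heart, with means of 244 ± 15.6 and 195 ± 17.6 (SD, n = 3). The log2 fold change was 0.32 (SE 0.09). Its unadjusted p of 0.00208 by limma ranked 41 among all genes, and the adjusted p was 0.689. *Ifih1* shared no stretch with another gene and kept an unadjusted p under 0.05 when any single heart was left out. With KO replicate 2 and WT replicate 1 both left out, its log2 fold change was 0.22 with an unadjusted p of 0.0571 by limma. That pair was chosen after the values were seen, and its choice favours a smaller difference.

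*Zbp1* (chr2:173206612-173218923, minus strand) encodes a sensor of Z-form nucleic acid that can start necroptosis. It was barely expressed, at 15, 19 and 23 in KO against 4, 12 and 11 in WT hearts. The KO values were all above the WT values, and WT replicate 1 at 4 lay close to the value that 3 reads give in that library, 3.77. The ratio of the means was 2.11. The log2 fold change of 1.10 (SE 0.36) had an unadjusted p of 0.00675 and an adjusted p of 0.772 (limma), and over the alternatives it ran from 0.65 to 1.35. The unadjusted p by limma was under 0.05 in all 6 fits that left out 1 heart. It was 0.0884 with KO replicate 2 and WT replicate 1 both left out, the pair chosen after the values were seen. *Trim25*, the ubiquitin ligase that acts on the RNA sensor RIG-I, was expressed at a higher level. Its values of 326, 372 and 343 in KO hearts spanned the WT values of 361, 346 and 353, with a fitted log2 fold change of -0.03 (SE 0.07), an unadjusted p of 0.706 and an adjusted p of 0.981 (limma).

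The 5 transcription factor genes overlapped between genotypes, where 4.64% of all genes had KO above WT without overlap and 4.44% below. KO replicate 2 was the highest heart in 4 of the 5 (80.0%, against 19.1% of all genes). *Irf7*, which drives the second wave of interferon production, was at 58, 104 and 83 in KO against 60, 80 and 63 in WT hearts. KO replicate 1 was thus the lowest of the 6 hearts and KO replicate 2 the highest. *Irf9*, the DNA-binding partner of STAT2, was at 153, 213 and 166 in KO against 155, 153 and 147 in WT hearts, where KO replicate 2 alone stood clearly apart. *Nlrc5*, the transactivator of MHC class I genes, was at 105, 133 and 102 in KO against 73, 109 and 118 in WT hearts, and WT replicate 1 was the low heart. Fitted log2 fold changes were 0.24 (SE 0.18) for *Irf7*, 0.21 (SE 0.11) for *Irf9* and 0.20 (SE 0.16) for *Nlrc5*. *Stat2* was at 174, 210 and 187 in KO against 158, 202 and 183 in WT hearts. *Irf1*, an early target of interferon gamma, was the one with a fitted value below 0, at 121, 131 and 121 in KO against 125, 134 and 131 in WT hearts.

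Of the 18 antiviral effector genes tested, 12 were fitted higher (66.7%, against 50.6% of all genes) and 6 lower, the median of their log2 fold changes being 0.13. KO lay above WT without overlap in 5 (27.8%, against 4.64% of all genes). Of these 5, 3 belong to the *Ifit* cluster, a run of 4 RNA-binding protein genes over 99.3 kb at chr19:34550710-34650009. *Ifit2* was at 285, 278 and 278 in KO against 230, 253 and 265 in WT hearts. The KO hearts were nearly identical, and the log2 fold change was 0.17 (SE 0.08) at an unadjusted p of 0.0443 and an adjusted p of 0.851 by limma. *Ifit1*, whose product binds RNA with an incompletely methylated cap, was at 131, 138 and 138 in KO against 113, 122 and 128 in WT hearts, a fitted log2 fold change of 0.17 (SE 0.10) at an unadjusted p of 0.125 and an adjusted p of 0.892 by limma. *Ifit3b* was at 37, 34 and 43 in KO against 29, 26 and 33 in WT hearts, and its log2 fold change was 0.36 (SE 0.20) at an unadjusted p of 0.0841 and an adjusted p of 0.862 by limma. Its copy *Ifit3* overlapped, at 57, 69 and 69 in KO against 47, 65 and 62 in WT hearts, with a fitted log2 fold change of 0.17 (SE 0.16). When 1 heart was left out, the unadjusted p of *Ifit2* stayed under 0.05 in 1 of 6 fits. Without the mean-variance trend, *Ifit2* had an unadjusted p of 0.0796 by limma. Its log2 fold change was 0.11 without WT replicate 1 and 0.22 without WT replicate 3. The 4 genes had fitted values between 0.17 and 0.36, all on the same side of 0.

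The other effector genes without overlap were *Usp18* and *Ifi35*. *Usp18* encodes the protease that removes ISG15 from proteins and dampens signalling at the type I receptor. It was at 45, 50 and 48 in KO against 38, 35 and 38 in WT hearts, means of 47.7 ± 2.52 and 37.0 ± 1.73 (SD, n = 3). The gap between genotypes exceeded the spread within each, but a spread over 3 hearts is poorly known at values this low. The fitted log2 fold change was 0.36 (SE 0.17) at an unadjusted p of 0.0513 and an adjusted p of 0.851 by limma. *Ifi35*, an interferon-induced leucine zipper protein, was at 64, 80 and 65 in KO against 58, 57 and 62 in WT hearts. KO replicate 2 was again the highest heart, and the log2 fold change was 0.23 (SE 0.15) at an unadjusted p of 0.135 and an adjusted p of 0.892 by limma. Leaving out KO replicate 2 brought the log2 fold change of *Ifi35* to 0.13.

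*Ifi44*, an interferon-induced protein of the cytoplasm, was at 88, 96 and 99 in KO against 72, 73 and 93 in WT hearts, with a fitted log2 fold change of 0.26 (SE 0.13), and WT replicate 3 reached into the KO range. *Isg15*, the ubiquitin-like modifier that is among the most inducible interferon targets in other settings, was at 5, 9 and 4 in KO against 4, 6 and 8 in WT hearts, with a mean of 6.00 in both. *Oas1a*, an enzyme making the oligoadenylates that activate RNase L, was also low, at 13, 20 and 18 in KO against 10, 19 and 15 in WT hearts. *Oasl2* of the same family was at 81, 117 and 100 in KO against 97, 105 and 98 in WT hearts, and its lowest and highest hearts were both KO. *Rsad2*, which encodes the antiviral radical SAM enzyme viperin, was the steadiest gene of the set, between 170 and 176 in all 6 hearts. *Bst2*, or tetherin, which holds budding virus at the cell surface, was at 25 to 37 in KO hearts and 31 to 33 in WT hearts.

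*Parp14*, a mono-ADP-ribosyltransferase, had the highest mean value of the set, and its neighbours *Parp9* and *Dtx3l*, whose products work as a pair, lie within 140 kb of it on chromosome 16. *Parp14* was at 683, 733 and 646 in KO against 626, 662 and 703 in WT hearts, a fitted log2 fold change of 0.05 (SE 0.07) at an unadjusted p of 0.458 and an adjusted p of 0.956 by limma. *Parp9* was at 212, 238 and 223 in KO against 223, 227 and 228 in WT hearts. *Dtx3l* was at 184, 217 and 183 in KO against 190, 197 and 202 in WT hearts. All 3 genes had their highest heart in KO replicate 2 while the genotypes overlapped, and for *Parp14* the bound on a difference was tight, with a 95% interval of -0.09 to 0.19 on the log2 scale. *Lgals3bp*, a secreted galectin-binding glycoprotein, was at 124, 167 and 178 in KO hearts and 133 to 147 in WT hearts. *Ifi27*, a mitochondrial interferon-induced protein, was at 43 to 50 and 38 to 50, *Xaf1*, a pro-apoptotic factor, at 62 to 73 and 65 to 70, and *Rtp4*, a receptor chaperone, at 48 to 59 and 49 to 59, in KO and WT hearts.

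All 8 GTPase genes overlapped between genotypes, where 4.64% of all genes had KO above WT without overlap and 4.44% below. Of the 8, 5 were fitted higher (62.5%, against 50.6% of all genes) and 3 lower, with a median log2 fold change of 0.03. *Irgm2* (chr11:58199618-58222782, plus strand), a regulatory GTPase that keeps the effector GTPases off the cell's own membranes, was at 192, 225 and 173 in KO against 123, 140 and 201 in WT hearts. WT replicate 3 lay above 2 of the KO hearts, so the genotypes overlapped. The fitted log2 fold change was 0.37 (SE 0.14) at an unadjusted p of 0.0156 and an adjusted p of 0.807 by limma, and over the alternatives it ran from 0.12 to 0.57. The unadjusted p by limma stayed under 0.05 in 3 of the 6 fits that left out 1 heart, and was 0.109 without the mean-variance trend. *Irgm1*, of the same class, was at 171, 170 and 150 in KO against 132, 131 and 160 in WT hearts, a fitted log2 fold change of 0.22 (SE 0.11), again with WT replicate 3 inside the KO range. *Igtp*, which shares the promoter stretch shown above with *Irgm2*, was at 77, 84 and 69 in KO against 73, 74 and 83 in WT hearts, with means of 76.7 in both.

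Of the effector GTPase genes, *Iigp1* and *Ifi47* spread widely within a genotype. *Iigp1* was at 587, 542 and 399 in KO against 448, 440 and 587 in WT hearts, with the lowest value in a KO heart and the highest shared between a KO and a WT heart. Its log2 fold change was 0.04 (SE 0.12) at an unadjusted p of 0.705 and an adjusted p of 0.981 by limma, and it was below 0 in 4 of the 6 fits that left out 1 heart. *Ifi47* was at 11, 11 and 16 in KO against 10, 10 and 23 in WT hearts, and WT replicate 3 stood apart. The guanylate-binding protein genes *Gbp2*, *Gbp3* and *Gbp7*, which lie within 108 kb on chromosome 3 and whose products coat pathogen vacuoles, varied little between hearts. *Gbp2* was at 160 to 193 in KO hearts and 174 to 187 in WT hearts, *Gbp3* at 196 to 231 and 197 to 208, and *Gbp7* at 266 to 283 and 249 to 298. Their fitted log2 fold changes ran from -0.05 to 0.08.

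All 8 antigen presentation genes overlapped between genotypes too, where 4.64% of all genes had KO above WT without overlap and 4.44% below. Of the 8, 7 were fitted higher (87.5%, against 50.6% of all genes) and 1 lower, with a median log2 fold change of 0.09. None had an unadjusted p under 0.05 (limma), where 5.74% of all genes did, and their lowest adjusted p was 0.885. The class I heavy chain gene *H2-K1* was at 228, 285 and 200 in KO against 194, 220 and 212 in WT hearts, and *H2-D1* was at 352, 360 and 335 in KO against 294, 338 and 341 in WT hearts. For *H2-K1* the upper end was set by KO replicate 2, and for *H2-D1* the lower end by WT replicate 1. *B2m*, the most abundant per kilobase, was at 298, 310 and 303 in KO against 328, 291 and 276 in WT hearts, with a fitted log2 fold change of 0.03 with a 95% interval of -0.14 to 0.19. The intervals of *H2-K1*, from -0.05 to 0.40, and of *H2-D1*, from -0.05 to 0.27, also included 0.

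Of the genes of peptide supply, *Psmb8*, *Psmb9*, *Tap1*, *Tap2* and *Tapbp*, all in the MHC region on chromosome 17 together with *H2-K1*, only *Psmb8* had a fitted log2 fold change above 0.2. *Psmb8*, a catalytic subunit of the immunoproteasome, was at 45, 53 and 38 in KO against 38, 39 and 37 in WT hearts, a fitted log2 fold change of 0.24 (SE 0.18). Its partner subunit *Psmb9* was at 14 to 16 in KO hearts and 13 to 16 in WT hearts, with a mean of 14.7 in both. *Psmb9* and *Tap1*, a subunit of the peptide transporter, are read in opposite directions, with 225 bases between their RefSeq start sites, and overlap at their 5′ ends in the coordinates of the table. *Tap1* was at 74, 85 and 82 in KO against 63, 72 and 87 in WT hearts, and *Tap2*, the other subunit, at 134 to 139 and 120 to 139. *Tapbp*, or tapasin, which bridges the transporter and class I, was at 272 to 310 in KO hearts and 287 to 313 in WT hearts, with a fitted value of -0.04, the single one below 0 in this group.

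**Figure D4:**
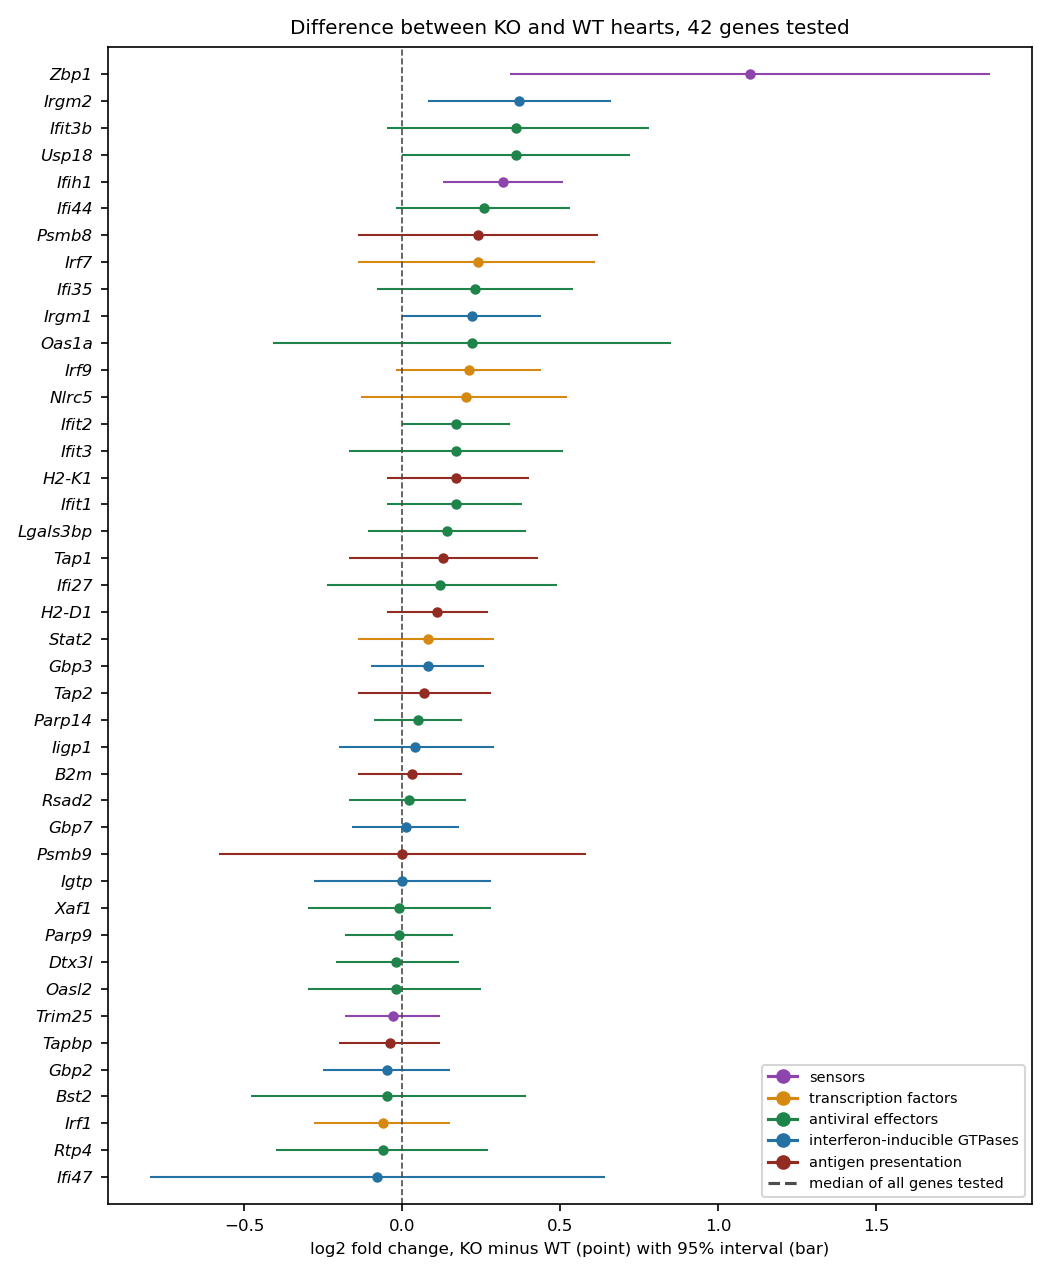
Fitted log2 fold change of KO against WT for the 42 genes tested (points, coloured by role) with the 95% interval of limma (bars), sorted by size; the dashed line is the median of all genes tested. The intervals of *Zbp1*, *Irgm2*, *Ifih1* and *Ifit2* start above 0, and those of *Irgm1* and *Usp18* reach 0.

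Genes with and without the ISRE letters were found on both sides of 0. Of the 15 tested genes with a match, 12 were fitted higher and 3 lower, with a median log2 fold change of 0.08. Of the 18 with a promoter but no match, 11 were higher and 7 lower, with a median of 0.12. Of the 9 with no promoter in the table, 7 were higher and 2 lower, with a median of 0.07. No test was made of these groups.

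Hearts differed in the level of the set as a whole, though not alike for every role. Taking each gene's deviation from its own mean over the 6 hearts, the median deviation of the 42 genes on the log2 scale was 0.01, 0.13 and 0.01 for KO replicates 1 to 3 against -0.14, -0.03 and 0.02 for WT replicates 1 to 3. Over all genes it was between -0.00 and 0.01 in each heart. KO replicate 2 was the highest heart for 23 of the 42 genes (54.8%, against 19.1% of all genes), and WT replicate 1 was the lowest for 18 (42.9%, against 18.9%). The GTPase genes departed from this, since KO replicate 2 was the highest heart for 2 of the 8 and KO replicate 1 for 3. In WT replicate 3 the median deviation was -0.17 for the sensor genes and 0.12 for the GTPase genes. Over the 42 genes, the remaining 4 hearts had medians within 0.05 of each other, although 2 were KO and 2 were WT. The summed value of the 43 genes was 6730, 7281 and 6583 in KO against 6132, 6438 and 6806 in WT hearts, so WT replicate 3 exceeded 2 of the KO hearts. Among the 42 tested genes, the spread within a genotype was widest for *Zbp1*, with an SD of 0.76 on the log2 scale, followed by *Ifi47* at 0.65, *Oas1a* at 0.44, *Irf7* at 0.42 and *Nlrc5* at 0.37.

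**Figure D5:**
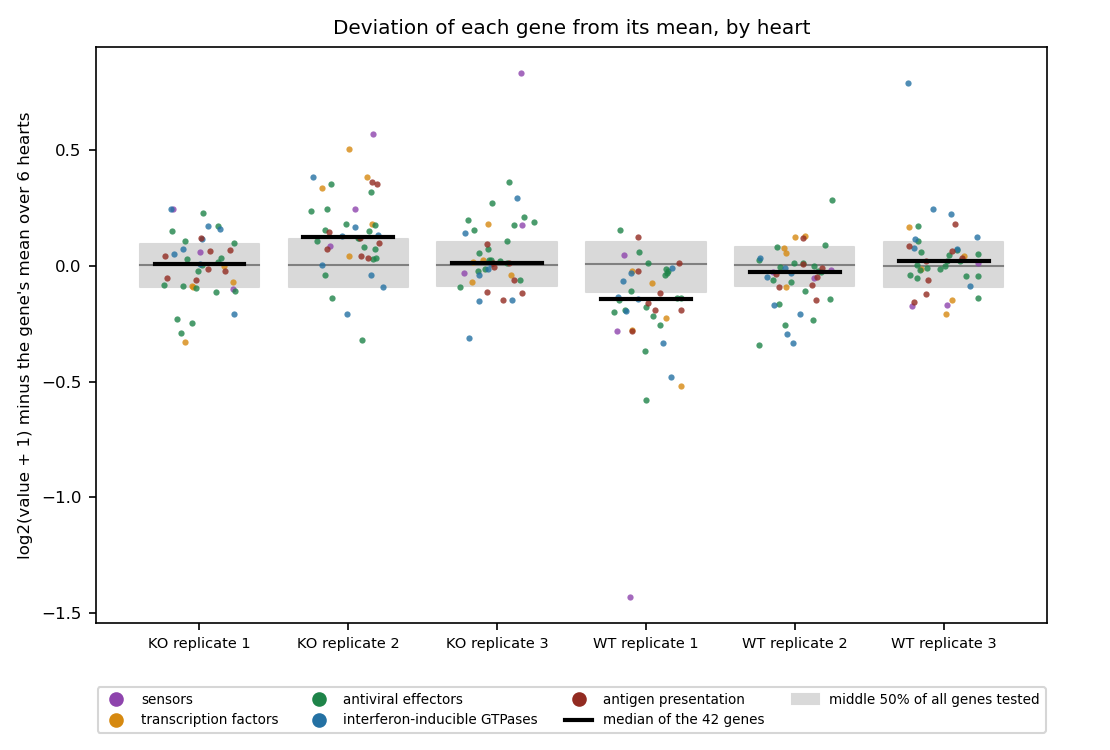
Deviation of each of the 42 tested genes from its own mean over the 6 hearts, on the log2(value + 1) scale, by heart (points, coloured by role); black bars are their medians, and grey boxes hold the middle 50% of all genes tested. The median is 0.13 in KO replicate 2 and -0.14 in WT replicate 1, and between -0.03 and 0.02 in the other 4 hearts.

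Marker lists of other cells did not all move with the same hearts. Of 7 endothelial markers, 4 were highest in KO replicate 3 and 2 in KO replicate 2. They summed to 4267 to 4929 in KO hearts and 4307 to 4782 in WT hearts. Of 6 fibroblast markers, 2 were highest in KO replicate 2 and 3 in WT replicate 1, with sums of 3498 to 3958 in KO hearts and 3700 to 3970 in WT hearts. The 4 general leukocyte markers summed to 280 to 368 in KO hearts and 291 to 346 in WT hearts. Of 11 macrophage markers, all measured in every heart, 9 were highest in KO replicate 2, and their summed value was 1733 to 2230 in KO hearts and 1853 to 1980 in WT hearts, with none at 0. Their median log2 fold change was 0.12, and 2 of the 11 had an unadjusted p under 0.05 by limma, both higher in KO, against 5.74% of all genes in either direction. In 1 of the 11 (9.09%) KO lay above WT without overlap, against 4.64% of all genes. KO replicate 1 had the lowest macrophage sum, while its median deviation of the interferon genes was 0.01. All 6 cardiomyocyte markers were highest in WT replicate 1, as were 2867 of all 13753 genes tested. All 6 were fitted lower in KO (median of the log2 fold changes -0.15), as were 6788 of the 13753. Of the 6, 3 had an unadjusted p under 0.05 by limma, where 2.80% of all genes were lower at this limit. KO lay below WT without overlap in 1 of the 6, against 4.44% of all genes. The summed values of the 6 were 17964 to 19144 in KO hearts and 18740 to 22840 in WT hearts. Atrial markers summed to 434 to 620 in KO hearts and 449 to 566 in WT hearts, and 3 of the 4 were highest in KO replicate 2, while 3, not all the same, were lowest in WT replicate 1. The 5 erythroid markers were likewise all highest in WT replicate 1 and all fitted lower in KO, with a median of -0.22 and sums of 164 to 304 in KO hearts and 151 to 423 in WT hearts. WT replicate 1 was also the library with the fewest reads. The part of these differences in the result was not tested. T and NK cell markers, the usual source of interferon gamma, summed to 18 to 34 in KO hearts and 15 to 28 in WT hearts, and *Cd3e*, *Cd3g* and *Cd8a* were at 0 in at least 1 heart.

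Other genes of the pathway, listed by function but with earlier results of these data known, were read in the same fit. Of 88 genes, 82 had a row and 74 were tested. None passed an adjusted p of 0.05 (limma, or limma-voom), and 6 had an unadjusted p under 0.05 by limma, 5 higher and 1 lower, which is 8.11% against 5.74% of all genes. The fitted value was above 0 in 49 (66.2%, against 50.6% of all genes) and below 0 in 25, with a median of 0.04. KO hearts were above WT hearts without overlap in 5 genes, named here after their values were seen, which were *Mx1*, *Trim21*, *Cxcl9*, *Ifi204* and *Sp100*. This is 6.76%, against 4.64% of all genes. They were below in 1, *Mavs*, where 4.44% of all genes were below.

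The receptor and kinase genes named here overlapped between genotypes. *Ifnar1*, the signalling chain of the type I receptor, was at 262, 276 and 308 in KO against 248, 228 and 262 in WT hearts, a fitted log2 fold change of 0.20 (SE 0.08) at an unadjusted p of 0.0327 and an adjusted p of 0.851 by limma. *Ifnar2*, its partner chain, was at 121 to 141 and 111 to 148, and *Ifngr1*, the ligand-binding chain of the interferon gamma receptor, at 219 to 278 and 218 to 241. The kinase gene *Jak1* was at 1007 to 1110 in KO hearts and 956 to 1124 in WT hearts.

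Among the sensors and effectors outside the set, *Ddx58*, the gene of RIG-I, was at 178 to 204 in KO hearts and 181 to 186 in WT hearts, and *Eif2ak2*, the gene of the double-stranded RNA kinase PKR, at 353 to 392 and 343 to 394. *Mavs*, the mitochondrial adaptor of RIG-I and MDA5, was chosen after its values were seen as the only gene below without overlap, at 305, 352 and 327 in KO against 374, 360 and 374 in WT hearts, a fitted log2 fold change of -0.17 (SE 0.07) at an unadjusted p of 0.0298 and an adjusted p of 0.851 by limma. The sensor gene *Ifih1* and its adaptor gene thus had fitted values on opposite sides of 0. *Mx1*, an antiviral dynamin-like GTPase, was at 20, 32 and 19 in KO against 15, 13 and 13 in WT hearts, a fitted log2 fold change of 0.71 (SE 0.27) at an unadjusted p of 0.0169 and an adjusted p of 0.807 by limma. *Ifitm3*, which blocks viral fusion, was at 53 to 71 and 61 to 65. In antigen presentation, *Psmb10*, the third immunoproteasome subunit, was at 77 to 109 and 89 to 97, the non-classical class I gene *H2-T23* at 51 to 59 and 51 to 55, and *Cd74*, the class II invariant chain, at 158 to 215 and 169 to 207. A further pair of non-classical class I genes, chosen after their values were seen, had an unadjusted p under 0.05 by limma. *H2-Q4* was at 146, 169 and 140 in KO against 123, 142 and 111 in WT hearts, with a fitted log2 fold change of 0.28 (SE 0.11) at an unadjusted p of 0.0247. *H2-Q6* was at 120, 164 and 84 in KO against 65, 92 and 113 in WT hearts, with a fitted log2 fold change of 0.43 (SE 0.20) at an unadjusted p of 0.0434. Both had an adjusted p of 0.851 and overlapped between genotypes.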

How the data were processed

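Total RNA of 6 mouse hearts was sequenced as strand-specific single-end libraries. According to the submitters' processing notes and the study's methods, the authors trimmed reads with Trimmomatic 0.39, aligned them to GRCm38 with STAR 2.6.1d, removed duplicates with Picard 2.21.1, dropped multi-mapping, ribosomal and mitochondrial reads, and counted exonic reads on the sense strand with featureCounts 1.6.5, leaving out reads of more than 1 gene. The deposited score is that count after the authors divided it by a DESeq2 1.18.1 size factor and rounded it to a whole number. Raw counts were not analysed here. Size factors and read totals were estimated from the spacing of the whole numbers; 3 reads correspond to values of 2.61 to 3.77, a limit that covers counting error only.

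KO and WT were compared on log2(value + 1) for genes with a mean of at least 10 (13753 genes) with limma 3.58.1 in R 4.3.3 (trended eBayes, two-sided, Benjamini-Hochberg, threshold 0.05), without covariates and tested on simulated data. Fold changes of low genes are understated on this scale. A member received full statistics if its unadjusted p was under 0.05, its genotypes did not overlap or its mean was among the highest 3. Members and lists were chosen with earlier results of these data known. Alternatives were other scalings, filters, pseudocounts and models, a replicate block and leaving out hearts. Exon lengths came from GENCODE M21 (GRCm38), which gives the table's coordinates for 30 of the 43 genes. Same-numbered hearts did not deviate together (correlations 0.05, -0.07 and -0.03). Python 3.11.15 was used for sequences and figures. Pathway genes were named in part, and those not named, among them 1 listed to be named, are included in the counts.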

Additional observations from a re-analysis of the deposited data

How the results depend on the processing

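No member passed an adjusted p of 0.05 under any alternative run, and neither did any of the other pathway genes. The count of members at an unadjusted p under 0.05, 4 in the main analysis, ran from 2 to 6 when 1 heart was left out (2 without KO replicate 2, without WT replicate 1 or without WT replicate 2), was 3 with a replicate block, and was 0 when KO replicate 2 and WT replicate 1 were both left out, an alternative chosen after seeing the data because members were most often highest and lowest in these hearts. That alternative also moved the member median from 0.09 to 0.00. In every other alternative the median stayed within the spread between hearts of a genotype. Without the mean-variance trend the member count was again 4, with *Ifit3b* and *Usp18* in place of *Ifit2* and *Irgm2*. The count of other pathway genes at an unadjusted p under 0.05, 6 in the main analysis, ran from 2 (without WT replicate 1) to 10 (without WT replicate 3) and was 3 without both hearts. The share of all genes at this limit, 5.74% in the main analysis, moved as well, to 8.24, 4.66 and 3.69% without KO replicates 1, 2 and 3, to 4.36, 4.73 and 8.60% without WT replicates 1, 2 and 3, and to 5.82% with the block, beside member counts of 6, 2 and 5, of 2, 2 and 6, and of 3. The numbers do not pair the hearts, so the replicate block is given for completeness and changed no adjusted call of a member.

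Over all genes, the count past an adjusted p of 0.05, 4 in the main analysis, was 1 without the mean-variance trend, 2 with at least 10 in every heart, 2 at a threshold of 0.01, 2 without both hearts, and 2 to 32 when 1 heart was left out (32 without KO replicate 1, 7 without WT replicate 3, 2 without KO replicate 2 or WT replicate 1). The cause was not tested. *Iigp1*, which ran from -0.07 to 0.21 when 1 heart was left out, changed sign to -0.07 without KO replicate 1, -0.01 without KO replicate 2, -0.02 without WT replicate 1, -0.03 without WT replicate 2 and -0.07 without both hearts, *Parp14* to -0.04 without both hearts, and *Trim25*, which ran from -0.08 to 0.02 when 1 heart was left out, to 0.02 without KO replicate 1. Scaling to equal totals moved the median of all genes to 0.02 and limma-voom to 0.03, and both gave 34 members higher and 8 lower. A correction for read density, added after seeing the data, gave 29 and 13. Depth limits *Isg15*, *Zbp1*, *Psmb9*, *Ifi47* and *Oas1a* most, at means of 6.00 to 15.8.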
